A study of Mus musculus with 2 samples.

Results

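Neurogenic cells caught in the mitotic phase were examined in dissociated peripheral retina of Rb/p107 mutant mice at postnatal day 8. A cell belonged to the set when it held at least 2 of the genes Olig2, Foxn4, Dll3, Dll4, Pkib and Rgs13, and when 10 proliferation genes together reached 2000 CPM, the count of unique molecular identifiers (UMIs) per 1000000 UMIs of that cell. These 10 genes were Mki67, Top2a, Cenpf, Ube2c, Birc5, Nusap1, Tpx2, Cdk1, Ccna2 and Hist1h2ap. Cells with 2 or more of Otx2, Prdm1, Neurod4 and Epha8, or with 2 or more of Ptf1a, Prdm13, Lhx5 and Neurog1, were left out. The rule found 246 cells among 8814, of which 112 were among the 3620 cells of the DKO library and 134 among the 5194 cells of the DKO_Skp2het library. Since the cells were chosen by their expression, the levels that define them are descriptions and were given no test.

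DKO retina carried alphaCre, Rbf/f and p107-/-, and the labels call it tumor-prone. DKO_Skp2het retina carried the same alleles plus Skp2+/-, and the labels call it tumor-resistant. Both groups therefore share the loss of p107 in every cell and of Rb wherever the alpha-Cre driver was active, and retina with intact Rb and p107 was not analysed here. The dissected periphery is where this driver is expressed, but the count of a cell does not show whether Cre acted in it. There was 1 library per genotype, and how many animals each library pooled is not given in the sources used here. No difference between the libraries has a replicate check, no p-value is given, and genotype and library cannot be told apart. Intervals are 95% intervals that cover counting error only and treat the UMIs of 1 cell as independent. The DKO library held 24413761 UMIs and the DKO_Skp2het library 25766024. The lowest UMI total of a barcode was 3420 in DKO and 2387 in DKO_Skp2het. The median total of the neurogenic mitotic cells was closer, at 4485 and 4140 UMIs. The libraries shared 30 barcode sequences, none of them of a neurogenic mitotic cell.

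Retinal progenitors that are about to leave the cell cycle switch on proneural bHLH factors such as Neurog2, together with Olig2, Foxn4 and the Notch ligands Dll1, Dll3 and Dll4. The ligands signal to neighbouring progenitors, where Notch activity keeps Hes1 and Hes5 high and differentiation low. Rb and p107 are pocket proteins that hold back E2F-driven genes, and Skp2 is the substrate receptor of the SCF ubiquitin ligase that marks the CDK inhibitor p27 (Cdkn1b) for destruction. In the mouse annotation of the GRCm38 assembly, Olig2 lies at chr16:91225457-91228677 on the plus strand, Foxn4 at chr5:114254164-114273807 on the minus strand and Skp2 at chr15:9111985-9155425 on the minus strand.

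The label was checked against genes that the rule did not use. Neurog2, a proneural factor of neurogenic progenitors, reached 159 CPM (128 to 195) in DKO and 224 CPM (188 to 264) in DKO_Skp2het, and 41 of 112 and 56 of 134 cells held at least 1 UMI of it. Hes6, an antagonist of Hes1, was found in 105 and 132 cells. Ccnb1, the mitotic cyclin, was found in 66 and 85 cells, and Cdc20, the activator of the anaphase-promoting complex, in 74 and 83 cells. Cells with microglia genes, 37 in DKO and 47 in DKO_Skp2het, give the background of such detection. Among them 5.41% and 0% held Neurog2, 54.1% and 46.8% Hes6, 10.8% and 2.13% Ccnb1, and 16.2% and 4.26% Cdc20, at median depths of 8950 and 6359 UMIs. Each share was higher in the neurogenic mitotic cells, which were less deep. Mitotic cells with fewer than 2 of the neurogenic genes are a closer comparison. Of these, 11.7% and 12.0% held Neurog2, 80.4% and 82.5% Hes6, 57.1% and 60.1% Ccnb1, and 62.2% and 59.0% Cdc20. In the set Ccnb1 was found in 58.9% and 63.4% and Cdc20 in 66.1% and 61.9%. Detection of Ccnb1 and Cdc20 thus goes with the mitotic phase that the rule selected, and does not set these cells apart from other mitotic cells. Olig2 is also known from oligodendrocytes, and markers of that lineage were at or near 0. Sox10 was at 0 in both libraries and Pdgfra gave 3 UMIs in DKO and 5 in DKO_Skp2het. The 8 markers of the oligodendrocyte list summed to 34.6 and 27.0 CPM, with 4 and 5 of them at 0. The 10 microglia markers summed to 20.8 and 23.8 CPM, with 4 at 0 in each library, and no cell of the set carried 4 or more of them. The 8 ganglion cell markers summed to 22.5 and 11.1 CPM.

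The names Olig2 and Foxn4 do not cover every cell of the set. Olig2 was detected in 53 DKO cells (47.3%) and 56 DKO_Skp2het cells (41.8%), and Foxn4 in 50 (44.6%) and 62 (46.3%). At least 1 of the pair was found in 69.6% of the DKO cells and 69.4% of the DKO_Skp2het cells, which left 34 and 41 cells with neither. Pkib, which encodes an inhibitor of protein kinase A, was the gene of the rule found most often, in 77 and 98 cells. Its detection separates cell types poorly: 37.8% of 37 DKO cells with microglia genes (median depth 8950 UMIs) and 44.7% of 47 such DKO_Skp2het cells (6359 UMIs) also held a Pkib UMI. After every cell was thinned to 2000 UMIs, Pkib was found in 41.1% and 47.0% of the neurogenic mitotic cells and in 10.8% and 23.4% of the microglia-gene cells. Olig2 was sharper, with 5.41% and 2.13% of the microglia-gene cells holding a UMI before thinning. Cells that entered through Pkib and Rgs13 alone numbered 18 in DKO and 16 in DKO_Skp2het. Exactly 2 of the 6 genes were found in 67 DKO cells, and exactly 3 in 30. In DKO_Skp2het 56 cells held exactly 2 and 54 held exactly 3.

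The proliferation sum had a median of 7273 CPM in DKO (2061 to 16959) and 6616 CPM in DKO_Skp2het (2069 to 16548). Most cells lay far from the limit. Between 2000 and 2500 CPM there were 5 DKO and 16 DKO_Skp2het cells, and neurogenic cells just below the limit, between 1500 and 2000 CPM, numbered 6 and 14. The exclusion had more weight than the limit. Before it, 787 DKO and 722 DKO_Skp2het cells met the other parts of the rule, and it removed 675 and 588 of them. The set of Otx2, Prdm1, Neurod4 and Epha8, genes of photoreceptor and bipolar precursors, removed 663 and 574 cells, and the Ptf1a set, genes of amacrine and horizontal precursors, removed 111 and 49. The removed cells were deeper than those kept, with medians of 6750 and 5575.5 UMIs. The part of depth in the removal was not tested. Otx2 itself, a photoreceptor and bipolar factor, was still detected in 63 DKO cells (56.3%) and 84 DKO_Skp2het cells (62.7%), while 21.6% and 14.9% of the microglia-gene cells held a UMI of it.

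Neurogenic mitotic cells made up 3.09% of the DKO library (2.55 to 3.71) and 2.58% of the DKO_Skp2het library (2.17 to 3.05). The ratio of these shares was 0.834 (0.651 to 1.07), so a difference in share was not detectable at this depth. With at least 3 of the 6 genes required, which left 45 and 78 cells, it was 1.21. The same neurogenic cells below 2000 CPM made up 1.35% of DKO (1.00 to 1.79) and 2.19% of DKO_Skp2het (1.81 to 2.63), a ratio of 1.62 (1.16 to 2.26). Among all neurogenic cells outside the exclusion, 69.6% were above the mitotic limit in DKO (61.8 to 76.6) and 54.0% in DKO_Skp2het (47.6 to 60.4). The ratio was 0.777 (0.666 to 0.906), a difference beyond counting error. Before the exclusion the share above the limit was 75.9% in DKO and 61.7% in DKO_Skp2het, a ratio of 0.813 (0.768 to 0.861). Depth differed between the libraries. With every cell thinned to 2000 UMIs before the rule, the ratio outside the exclusion was 0.931 (0.841 to 1.03), no longer beyond counting error. Thinning also changes which cells pass the rule and its exclusion, and the set then held 136 DKO and 187 DKO_Skp2het cells. Differences of genes between libraries given below with thinning come from those cells too. With at least 3 of the 6 genes the ratio was 0.959 (0.807 to 1.14), and with both libraries held to the same lowest UMI total it was 0.854 (0.721 to 1.01). Over the whole libraries 47.7% of DKO cells and 33.5% of DKO_Skp2het cells reached 2000 CPM, so a lower mitotic share was not particular to the neurogenic cells. The set made up 6.48% of all cells above the limit in DKO and 7.71% in DKO_Skp2het.

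**Figure D1:**
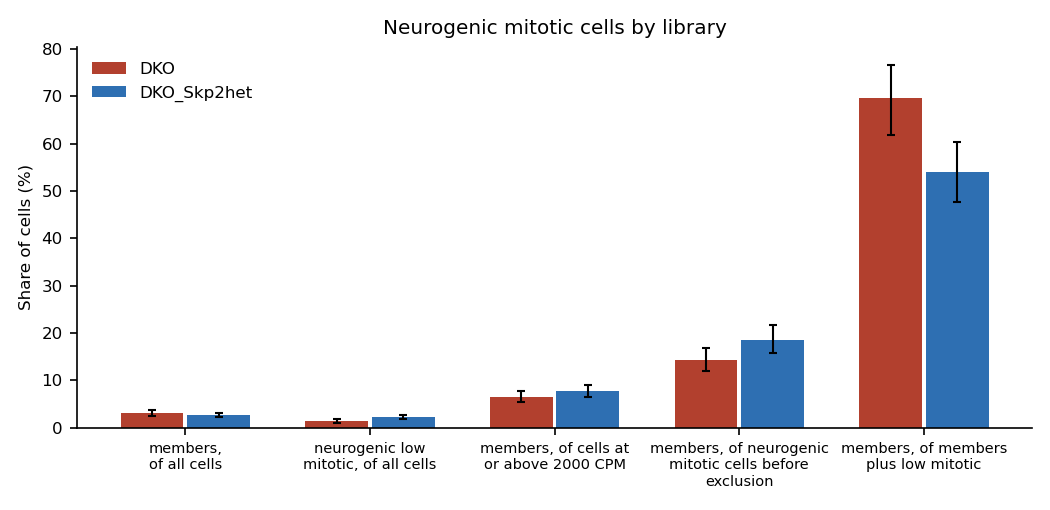
Bars give the share of cells (%) in each library, where members are the neurogenic mitotic cells and error bars are exact 95% Clopper-Pearson intervals for counting error only. The share of neurogenic cells above the mitotic limit was 69.6% in DKO and 54.0% in DKO_Skp2het, while the share of all cells was 3.09% and 2.58%.

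Within each library the set was set beside mitotic cells that held fewer than 2 of the neurogenic genes and passed the same exclusion, 643 in DKO and 644 in DKO_Skp2het. These share the mitotic phase, so the comparison shows what goes with the neurogenic genes. The levels below are CPM of the summed UMIs of a population, and log2 differences are those of CPM plus 5. A pseudocount of 5 understates differences of low genes. Over both libraries, 4032 genes with at least 50 UMIs in the set were compared, and 1.22% of them were at least 2-fold higher in the set in both libraries.

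Of 18 neurogenic genes outside the rule, 15 were abundant enough to compare. All 15 were higher in the neurogenic mitotic cells than in the other mitotic cells of their library, in both libraries, and 8 were at least 2-fold higher in both. The median difference was 1.01 in DKO and 1.17 in DKO_Skp2het, beside 0.031 and 0.024 over all genes. Neurod1, a bHLH factor of photoreceptor and amacrine differentiation, differed most: 436 against 46.4 CPM in DKO and 540 against 89.3 CPM in DKO_Skp2het, log2 differences of 3.10 and 2.53. Insm1, a zinc-finger factor of delaminating neuronal precursors, was at 379 against 97.9 CPM and 562 against 104 CPM. Hes6 was at 1722 against 630 CPM and 2015 against 847 CPM. Each of these genes was several-fold above the other mitotic cells in both libraries.

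Neurog2 was at 159 CPM in DKO and 224 CPM in DKO_Skp2het, where the other mitotic cells held 56.6 and 41.7 CPM. Mybl1, a MYB family transcription factor, differed by 1.75 and 1.96. Btg2, an antiproliferative gene of neurogenic divisions, differed by 0.86 and 0.89. Gadd45a and Sox11 were nearly level in DKO, by 0.07 each, and differed by 1.20 and 0.91 in DKO_Skp2het. Atoh7, the factor of ganglion cell precursors, had no UMI in the set in either library.

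Genes that no list held also separated the set from the other mitotic cells. The rule for naming took the 15 genes with the largest difference in the library where it was smaller. Beside Neurod1, Insm1, Mybl1, Neurog2 and Hes6, these were Jam2, Glrx, Amer2, Meg3, Slc1a2, Klhdc8a, Ntm, Olfm1, Trib1 and Rtkn2. Jam2, a junctional adhesion molecule, was at 142 against 29.3 CPM in DKO and 146 against 33.1 CPM in DKO_Skp2het. Glrx, glutaredoxin, was at 177 against 26.5 CPM and 157 against 36.4 CPM. Amer2, a regulator of Wnt signalling, was at 197 against 47.5 CPM and 251 against 58.5 CPM.

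One promoter of this group is printed to show the motif that bHLH proneural factors bind. It is the first of 2 promoters that RefSeq lists for Hes6, taken from the GRCm38.p6 table as the 250 bases before its start, chr1:91414039-91414288 on the minus strand, with the E-box CAGCTG in capitals.

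Hes6 promoter: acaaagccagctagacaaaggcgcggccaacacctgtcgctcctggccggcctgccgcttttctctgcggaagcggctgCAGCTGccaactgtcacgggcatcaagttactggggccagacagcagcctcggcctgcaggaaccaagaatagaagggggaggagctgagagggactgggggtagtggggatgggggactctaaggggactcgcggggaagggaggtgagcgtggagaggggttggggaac

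CAGCTG reads the same on both strands. It was found in the 250 bases before the start of 5 of the 13 neurogenic genes with a promoter in the table (38.5%), beside 14.7% of all 27025 genes, and in 3 of 46 G2M genes (6.52%). Those 13 genes lie outside the rule. Among the rule's own neurogenic genes 1 of 6 held it (16.7%), near the share of all genes. A match describes the letters only and shows no binding.

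Notch pathway genes did not move as a group. Of 8 compared, 3 were higher and 4 lower in the set than in the other mitotic cells in both libraries. The ligand Dll1 was higher, at 64.0 against 21.9 CPM in DKO and 82.5 against 35.5 CPM in DKO_Skp2het. The Notch target Hes1 was lower, at 187 against 549 CPM and 179 against 552 CPM, log2 differences of -1.53 and -1.60. Hes5, a target of the same pathway, differed less, at 599 against 665 CPM and 524 against 790 CPM. The receptor Notch1 was nearly level, with log2 differences of -0.04 and 0.11. Higher Dll1 and lower Hes1 beside a near-level receptor were thus found in both libraries.

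Progenitor factors were lower in the set, though by less. Of 10 compared, 8 were lower than in the other mitotic cells in both libraries, with medians of -0.42 and -0.44, and none reached 2-fold in both. Lhx2, a homeobox factor of the optic vesicle and of glial competence, was at 318 against 575 CPM in DKO and 289 against 554 CPM in DKO_Skp2het. The 2 exceptions were Rax, at 358 against 248 CPM and 317 against 245 CPM, and Sox2, with differences of 0.08 and 0.19.

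Müller glia genes were lower throughout. Of the list, 10 were abundant enough to compare, all 10 were lower in both libraries, and 7 were at least 2-fold lower in both, where 0.719% of all genes were. Medians were -1.15 in DKO and -1.26 in DKO_Skp2het. Apoe, the lipid carrier of glia, was at 718 against 1573 CPM in DKO and 633 against 1640 CPM in DKO_Skp2het. Slc1a3, the glial glutamate transporter, was at 121 against 321 CPM and 79.3 against 295 CPM. Crym, a thyroid hormone binding protein, was at 580 against 1310 CPM and 546 against 1223 CPM. Glial transcripts were therefore lower in the set but not absent, and Apoe was found in 55.4% and 53.7% of its cells. Immediate-early genes moved with them: all 7 compared were lower, with medians of -0.85 and -0.89, and Fos was at 1033 against 2519 CPM and 814 against 2343 CPM. Their part in the other differences was not tested.

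**Figure D2:**
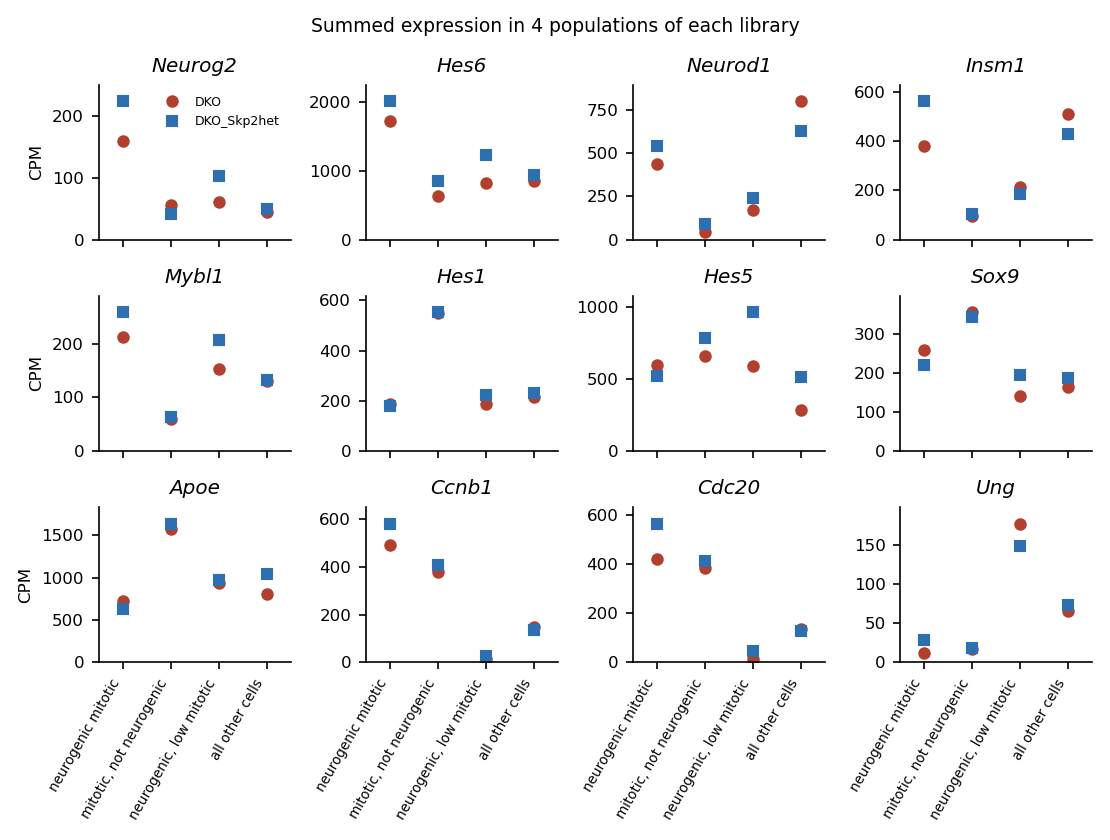
Each panel gives the CPM of 1 gene from summed UMIs in 4 populations, with 1 point per library on a linear axis from 0. Neurog2, Hes6, Neurod1, Insm1 and Mybl1 stand above the other mitotic cells in the neurogenic mitotic cells, Hes1, Sox9 and Apoe stand below, and Ccnb1 and Cdc20 separate both mitotic populations from the neurogenic cells below the limit.

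Against neurogenic cells below the mitotic limit, 49 in DKO and 114 in DKO_Skp2het, the set differed mainly in G2M genes. All 53 G2M genes compared, none of which the rule used, were higher in both libraries, and 51 were at least 2-fold higher in both, where 6.35% of all genes were. The medians were 3.54 and 2.997 on the log2 scale. Since the rule selected on proliferation genes of the same phase, this describes the selection. Ccnb1 was at 492 CPM in DKO (436 to 552) and 582 CPM in DKO_Skp2het (524 to 645), and the low mitotic cells held 12.1 and 26.8 CPM. Cdc20 was at 421 and 565 CPM, where the low mitotic cells held 12.1 and 47.5 CPM. Cenpa, the centromeric histone variant, was at 836 and 978 CPM against 44.4 and 97.0 CPM.

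S phase genes went the other way in 18 of the 28 compared, which were lower in the set in both libraries, and 7 were higher. At least 2-fold lower in both were 2 of the 28, where 0.694% of all genes were. Pcna, the replication clamp, was at 104 against 214 CPM in DKO and 74.6 against 254 CPM in DKO_Skp2het. E2f1, a gene of the E2F and DREAM list and not of the S phase list, was at 119 against 319 CPM and 87.3 against 380 CPM. Among CDK inhibitors, Cdkn1c (p57) was at 348 against 1151 CPM in DKO and 340 against 912 CPM in DKO_Skp2het, and Cdkn2d (p19) was at 339 against 60.6 CPM and 276 against 51.6 CPM. The neurogenic genes were more alike between these populations: 8 of 15 were higher in the set in both libraries and 3 were lower. Hes6 was higher, by 1.07 and 0.70, and Rgs16, a regulator of G protein signalling, was lower, by -0.81 and -1.43. The low mitotic cells included 2 DKO and 1 DKO_Skp2het cell with microglia genes and 1 DKO_Skp2het cell with vascular genes. Without them the mitotic share of neurogenic cells was 70.4% and 54.5%.

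Promoters of mitotic genes often hold CCAAT boxes, which bind NF-Y, and a cell cycle homology region (CHR), which binds the DREAM and MuvB complexes that pocket proteins join. The promoters of Cdc20 and of Ube2c, a ubiquitin-conjugating enzyme of the anaphase-promoting complex, are printed as examples of mitotic genes. Ube2c belongs to the rule, so its higher level in the set than in the low mitotic cells was fixed by the selection. Cdc20 is outside the rule. Both promoters come from RefSeq's GRCm38.p6 table and leave out annotated exon bases. Cdc20 spans chr4:118437353-118437593 on the minus strand and Ube2c spans chr2:164769679-164769897 on the plus strand. Capitals mark CCAAT on either strand (ATTGG when read on the other strand) and TTTGAA on either strand.

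Cdc20 promoter: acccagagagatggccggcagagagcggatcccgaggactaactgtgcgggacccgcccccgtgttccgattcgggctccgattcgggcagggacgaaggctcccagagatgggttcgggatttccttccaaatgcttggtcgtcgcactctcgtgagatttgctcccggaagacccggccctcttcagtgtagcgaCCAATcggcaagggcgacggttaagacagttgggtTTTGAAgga
Ube2c promoter: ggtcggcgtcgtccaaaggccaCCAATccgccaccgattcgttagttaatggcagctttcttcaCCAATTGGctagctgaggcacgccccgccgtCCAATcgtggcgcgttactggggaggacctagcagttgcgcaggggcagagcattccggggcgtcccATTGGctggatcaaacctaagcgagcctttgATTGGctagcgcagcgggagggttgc

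The Cdc20 stretch holds 1 CCAAT box and 1 TTTGAA, and the Ube2c stretch holds 6 CCAAT boxes, counted on both strands with 1 overlapping pair, and no TTTGAA. Among G2M genes, 36 of 46 with a promoter in the table held CCAAT (78.3%), beside 37.5% of all genes. The CCAAT box did not set G2M genes apart from the other lists, since 24 of 35 S phase genes (68.6%) and 9 of 13 neurogenic genes (69.2%) held it too. TTTGAA was found in 13 of 46 G2M genes (28.3%), in 6 of 35 S phase genes (17.1%) and in 18.3% of all genes.

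Compared with all other cells of their library, the neurogenic mitotic cells were higher in all 53 G2M genes, 39 of them at least 2-fold in both libraries, where 2.80% of all genes were. The 3 photoreceptor genes compared were all at least 2-fold lower in both, where 0.843% of all genes were. Neurog2 stood out among genes without a mitotic role, at 159 and 224 CPM against 45.1 and 49.4 CPM. Neurod1 was not higher than in all other cells, which held 800 and 626 CPM and include Otx2 and Neurod4 precursors.

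The neurogenic mitotic cells were not uniform. They were split by detection of Otx2, which the rule limits but does not exclude. Median totals with and without an Otx2 UMI were 4408 and 4573 UMIs in DKO and 3818.5 and 4498.5 UMIs in DKO_Skp2het. The Otx2-detected cells thus had the lower median in both libraries. Neurod1 was at 682 CPM in the Otx2-detected DKO cells and 125 CPM in the rest, and at 775 and 218 CPM in DKO_Skp2het. Insm1 was at 496 and 231 CPM in DKO and at 685 and 394 CPM in DKO_Skp2het. Hes6 was at 2277 and 1022 CPM in DKO and at 2673 and 1118 CPM in DKO_Skp2het. Of the 15 neurogenic genes compared, 11 were higher in the Otx2-detected cells in both libraries and 2 were lower in both. Sox11 was one of the exceptions, at 642 and 709 CPM in DKO and at 839 and 995 CPM in DKO_Skp2het.

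Mybl1, Jam2 and Amer2, which set the whole set apart from other mitotic cells, were higher in the Otx2-detected cells as well. Mybl1 was at 319 and 78.3 CPM in DKO and at 349 and 135 CPM in DKO_Skp2het. Jam2 was at 226 and 35.2 CPM in DKO and at 209 and 60.1 CPM in DKO_Skp2het. Amer2 was at 316 and 47.0 CPM in DKO and at 333 and 139 CPM in DKO_Skp2het. All 10 Müller glia genes compared and 8 of 10 progenitor factors were lower in the Otx2-detected cells in both libraries, while Rax was at 360 and 356 CPM in DKO and at 368 and 248 CPM in DKO_Skp2het. Hes1 was at 121 and 270 CPM in DKO and at 104 and 281 CPM in DKO_Skp2het. Pax6, the homeobox factor of progenitors and amacrine cells, was at 391 and 752 CPM in DKO and at 338 and 518 CPM in DKO_Skp2het. Apoe was at 285 and 1265 CPM in DKO and at 289 and 1103 CPM in DKO_Skp2het. The cells without an Otx2 UMI therefore lay closer to the other mitotic cells, which held 1573 and 1640 CPM of Apoe. Detection of Otx2 depends on depth as well as on expression, and the part of depth was not tested.

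**Figure D3:**
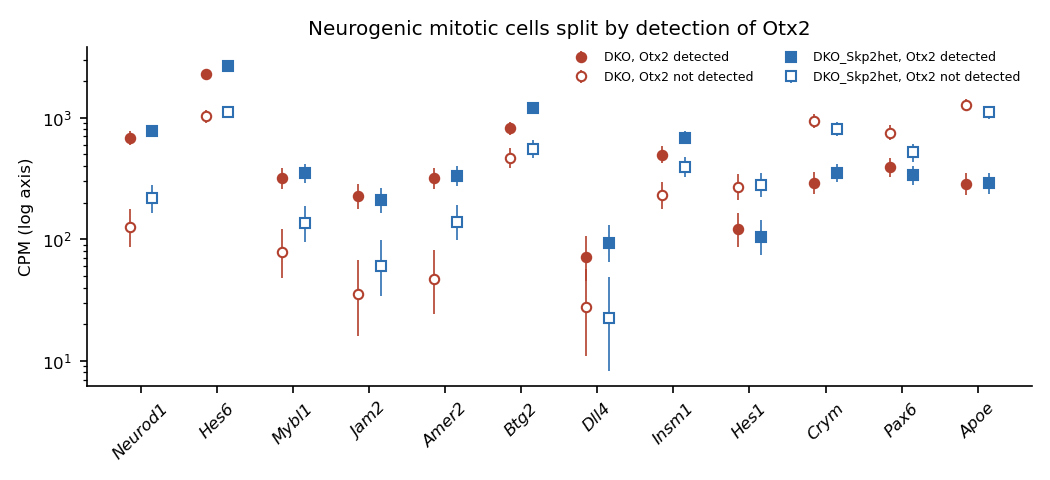
CPM on a log axis of summed UMIs in neurogenic mitotic cells with (filled) and without (open) an Otx2 UMI, with exact 95% Poisson intervals, in DKO (circles, 63 and 49 cells) and DKO_Skp2het (squares, 84 and 50 cells). The 8 genes on the left were higher with Otx2 and the 4 on the right, Hes1, Crym, Pax6 and Apoe, were lower, in both libraries.

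Detection of Olig2 and Foxn4 gave another split of the set. Cells with both numbered 25 in each library. In DKO their Neurod1 level was 885 CPM, against 375 CPM with Olig2 alone, 202 CPM with Foxn4 alone and 368 CPM with neither. In DKO_Skp2het the same order of subsets gave 652, 610, 564 and 423 CPM. The spread of Neurod1 over these subsets was wider in DKO, which was not tested. Apoe was at 73.7 CPM in the DKO cells with both genes, 352 CPM with Olig2 alone, 1051 CPM with Foxn4 alone and 1156 CPM with neither. In DKO_Skp2het the same order gave 358, 588, 758 and 706 CPM. The subsets with an Olig2 UMI were thus lowest in both libraries, and Foxn4 alone lay near neither gene. Cells with a UMI of Dll3 or Dll4, 42 in DKO and 68 in DKO_Skp2het, held 244 CPM of Neurog2 in DKO against 103 CPM in the rest, and 271 against 173 CPM in DKO_Skp2het. Their Hes1 level was 122 against 229 CPM and 102 against 262 CPM. Olig2, Foxn4, Dll3 and Dll4 all helped to choose the cells, so the values of these splits are descriptions.

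The cells were also split by the proliferation sum, which the rule used and whose genes accompany the G2M genes, so the values by bin are a description. The UMIs of 45 S phase genes divided by those of 54 G2M genes gave 0.858 in the 17 DKO cells between 2000 and 4000 CPM, 0.345 in the 45 cells between 4000 and 8000 CPM and 0.0921 in the 50 cells above. In DKO_Skp2het the ratios were 0.541, 0.249 and 0.0770 over 34, 48 and 52 cells. Neurog2 was highest there, at 304 CPM in DKO, followed by 154 and 105 CPM in the higher bins, and at 305, 201 and 191 CPM in DKO_Skp2het. Cdkn1a (p21), a CDK inhibitor and p53 target, was at 446, 112 and 73.8 CPM in DKO and at 403, 425 and 54.5 CPM in DKO_Skp2het.

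Between the libraries, the S phase to G2M ratio of the whole set was 0.223 in DKO (0.213 to 0.234) and 0.190 in DKO_Skp2het (0.181 to 0.199). The ratio of these values was 0.850 (0.796 to 0.908), so the DKO_Skp2het cells held fewer S phase transcripts per G2M transcript, beyond counting error. In mitotic cells without the neurogenic genes the ratios were 0.242 and 0.239, and the second over the first was 0.986 (0.960 to 1.01). In neurogenic cells below the mitotic limit it was 0.747 (0.659 to 0.846), and in all other cells 1.14 (1.13 to 1.15). The difference between populations was not tested. With each cell thinned to 2000 UMIs, the median cell of the set held 6 S phase UMIs in both libraries and 30 G2M UMIs in DKO against 34 in DKO_Skp2het. Cells with more S phase than G2M UMIs numbered 12 and 15. The size moved with the mitotic limit: it was 0.940 at 1000 CPM and 0.785 at 4000 CPM. Within the Otx2-detected cells the S phase to G2M ratio was 0.216 in DKO and 0.160 in DKO_Skp2het, and within the rest it was 0.231 and 0.233.

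Of 4032 genes compared between the libraries in the set, 0.769% (31 genes) were at least 2-fold apart, 20 higher in DKO_Skp2het (0.496%) and 11 lower (0.273%). Among the 2117 genes with at least 100 UMIs only 4 were 2-fold apart, so most large differences were of low genes. The median over all genes was 0.018 on the log2 scale and 52.7% of genes were above 0, and the lists below are read against these values.

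Neurogenic genes outside the rule were higher in DKO_Skp2het for 12 of 15, with a median of 0.30. In neurogenic cells below the mitotic limit 9 of 13 were higher, with a median of 0.51, so the shift was not particular to the mitotic cells. The median was 0.075 in the other mitotic cells (10 of 16 higher) and -0.033 in all other cells (8 of 17 higher). Insm1 was at 379 CPM in DKO and 562 CPM in DKO_Skp2het, a ratio of 1.48 (1.25 to 1.76), and was found in 63 of 112 and 91 of 134 cells. Btg2 was at 661 and 927 CPM, a ratio of 1.40 (1.23 to 1.60), but it was also higher in all other cells of DKO_Skp2het, by 0.46 on the log2 scale. Neurog2 had a ratio of 1.41 (1.07 to 1.85), a log2 difference of 0.48 that was 1.122 with thinning, and Sox11 of 1.35 (1.18 to 1.54). No gene of the list reached 2-fold. The size depends on which cells enter: with both libraries held to the same lowest UMI total the median was 0.13, and before the exclusion it was 0.066, with Sox11 at -0.17 and Neurod1 at -0.22. Photoreceptor markers were higher in DKO_Skp2het too. Together the 16 of them reached 215 CPM in the DKO cells, where 4 were at 0. In the DKO_Skp2het cells they reached 343 CPM, and 2 were at 0. Crx, their defining factor, gave 15 and 25 UMIs. This rise was not particular to the set. The markers summed to 199 and 392 CPM in the other mitotic cells and to 194 and 526 CPM in neurogenic cells below the limit. Their part in the neurogenic difference was not tested.

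Of the rule's own neurogenic genes, Dll3 was at 51.9 CPM in DKO and 84.1 CPM in DKO_Skp2het, Olig2 at 145 and 133 CPM and Foxn4 at 135 and 132 CPM. Since these genes chose the cells, nothing is read from their levels. Notch pathway genes were split, 4 above and 4 below 0, with a median of 0.020. Progenitor factors were lower in DKO_Skp2het for 7 of 10, with a median of -0.15. Pax6 was at 550 and 414 CPM, a ratio of 0.753 (0.636 to 0.889), and it was also lower in the other mitotic cells, by -0.31.

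G2M genes were higher in the DKO_Skp2het cells for 45 of 53, with a median of 0.22. Aurka, the kinase of centrosome maturation, was at 86.5 CPM in DKO and 162 CPM in DKO_Skp2het, a ratio of 1.87 (1.32 to 2.68), and was found in 34 and 60 cells. It differed by 0.12 in the other mitotic cells and by 0.03 in all other cells, and with cells thinned to 2000 UMIs before the rule its log2 difference in the set was 0.15, beside 0.87. Cdc20 had a ratio of 1.34 (1.14 to 1.59), Cdc25c, a CDK-activating phosphatase, of 1.47 (1.10 to 1.97) and Ccnb1 of 1.18 (1.01 to 1.39). Plk1, another mitotic kinase, was at 119 and 105 CPM, a ratio of 0.877 (0.616 to 1.25). In the other mitotic cells 48 of 54 G2M genes were higher in DKO_Skp2het, with a median of 0.13, whereas in all other cells 50 of 54 were lower, with a median of -0.13. S phase genes were split in the set, 12 above and 16 below 0, with a median of -0.069. Rpa2, a subunit of the single-strand DNA binding complex, was at 114 and 58.7 CPM, a ratio of 0.514 (0.334 to 0.780), but without the exclusion its log2 difference was 0.077, and with thinning -0.13, beside -0.90. Of 8 cyclins and kinases outside the rule, 7 were above 0, with a median of 0.16.

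**Figure D4:**
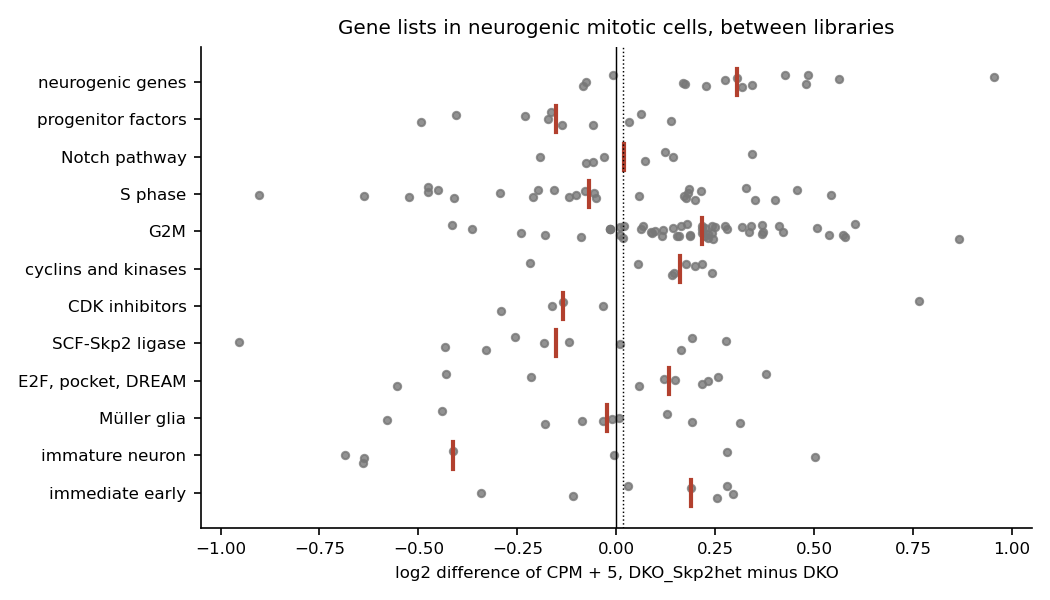
Each grey point is a gene with at least 50 UMIs in the neurogenic mitotic cells, placed by its log2 difference of CPM plus 5 (DKO_Skp2het minus DKO), the red bar is the list's median and the dotted line the median of all 4032 genes. Neurogenic genes (0.30) and G2M genes (0.22) lie to the right of 0, and immature neuron genes (-0.41) lie to the left.

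Skp2 was counted in the set, the other mitotic cells and all other cells because 1 of its alleles is lost in DKO_Skp2het. In the neurogenic mitotic cells it was at 96.9 CPM in DKO (73.2 to 126) and 47.6 CPM in DKO_Skp2het (32.1 to 68.0), a ratio of 0.491 (0.304 to 0.779). Its log2 difference was -0.95, and it lay between -1.07 and -0.49 over 17 alternative settings. A UMI was found in 43 of 112 and 28 of 134 cells. In the other mitotic cells it was at 87.7 and 64.2 CPM, and in all other cells at 80.0 and 57.3 CPM. The level was thus lower in DKO_Skp2het in each of these populations. Rb1 gave 5 UMIs in the set in each library, and Rbl1, which encodes p107, gave 17 in each. Which part of each gene the alleles remove is not given in the sources used here, so counts at the 3′ end check the alleles only in part. Among 10 subunits and partners of the ligase, 4 were above and 6 below 0, with a median of -0.15. Skp1a, its adaptor, had a ratio of 0.834 (0.638 to 1.09), and Cks1b, the cofactor for p27, was at 822 and 827 CPM.

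Of the CDK inhibitors, 1 of 5 was higher in DKO_Skp2het. Cdkn1b, whose protein is the target of Skp2, was at 112 CPM in DKO and 100 CPM in DKO_Skp2het, a ratio of 0.889 (0.618 to 1.28). These are transcript counts and hold no information on the protein. Cdkn1a was at 156 and 268 CPM, a ratio of 1.72 (1.33 to 2.25), but it was found in 37 of 112 and 48 of 134 cells (33.0% and 35.8%), so the share of cells was close, and 1 DKO_Skp2het cell held 34 UMIs. Without the highest cell of each library it was 0.63 on the log2 scale, beside 0.77 with it, and without the exclusion of Otx2 and Ptf1a set cells it was 0.13. Cdkn1a was 0.51 higher in the other mitotic cells of DKO_Skp2het too. Of 5 p53 targets and apoptosis genes, 4 were above 0, with a median of 0.27. Bax, an apoptosis effector, had a ratio of 1.32 (1.05 to 1.65), and Mdm2 of 1.22 (0.828 to 1.82). Cdkn1c was level, at 348 and 340 CPM. E2F and DREAM genes were above 0 in 7 of 10, with a median of 0.13.

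Among genes with at least 100 UMIs, those most above DKO in the DKO_Skp2het cells were Arrdc3 and Txnip, both of the arrestin-domain family that restrains glucose uptake or receptor signalling. Arrdc3 gave 25 UMIs in DKO and 77 in DKO_Skp2het (43.3 and 122 CPM, ratio 2.82, 1.78 to 4.63), from 21 of 112 and 45 of 134 cells. It differed by 0.19 in the other mitotic cells and by -0.11 in all other cells. Its log2 difference of 1.40 was 0.74 with cells thinned before the rule and 0.30 without the exclusion, so neither kept the 2-fold size. Txnip gave 39 and 101 UMIs (67.5 and 160 CPM), but from 23 and 27 cells, with up to 33 UMIs in 1 cell, and its log2 difference of 1.19 was 1.86 with thinning and 0.42 without the exclusion. The higher Txnip level thus came from few cells, while that of Arrdc3 came with more cells holding it. Ythdf2, a reader of methylated RNA, Hspa5, an endoplasmic reticulum chaperone, and Pim1, a kinase, had ratios of 2.00 (1.39 to 2.93), 1.78 (1.24 to 2.57) and 1.76 (1.28 to 2.44). Without the exclusion the log2 differences were -0.0071 for Ythdf2 and 0.029 for Pim1. Aurka, Tmem183a, Hspa14, Krcc1 and Clk1 completed the 10 highest genes, of which Hspa14 was at -0.029 with thinning and Tmem183a at 0.28 without the exclusion.

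The lowest of the genes in DKO_Skp2het, Pcp4 and Isl1, came from few cells. Pcp4, a calmodulin regulator of retinal neurons, gave 138 UMIs in DKO and 22 in DKO_Skp2het, but 126 of the DKO UMIs lay in 1 cell, and without the highest cell of each library the log2 difference moved from -2.61 to -0.12. Isl1, a factor of bipolar, ganglion and amacrine cells, gave 86 and 30 UMIs from 4 and 2 cells, up to 47 and 29 in 1 cell, and its log2 difference moved from -1.55 to -3.48 without those cells and to 1.05 with thinning. Calb1, a horizontal and amacrine cell gene, gave 40 UMIs in 1 DKO cell and 1 UMI in DKO_Skp2het. These values describe those cells and not the set. Sncb, Rpa2, Nsg1, Snrpn, Ccdc124, mt-Nd3, Ryk and Cd47 completed the 10 lowest, with log2 differences between -0.96 and -0.73. With cells thinned before the rule Sncb was at 0.25, Nsg1 at 0.16 and Snrpn at 0.094. Without the exclusion Cd47 was at 0.16 and Ccdc124 at -0.20. Immature neuron genes had a median of -0.41 over 7 genes, 5 of them below 0. The same list was lower in DKO_Skp2het in each other population, so this was not particular to the set. Medians were -0.53 in the other mitotic cells (8 of 10 below 0) and -1.06 in neurogenic cells below the limit (7 of 7). In all other cells the median was -0.33, with 12 of 13 below 0. Within the set, Stmn2 had a ratio of 0.598 (0.364 to 0.968). Of the 46 Stmn2 UMIs in DKO, 23 lay in 1 cell, and without the highest cell of each library its log2 difference was -0.04.

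**Figure D5:**
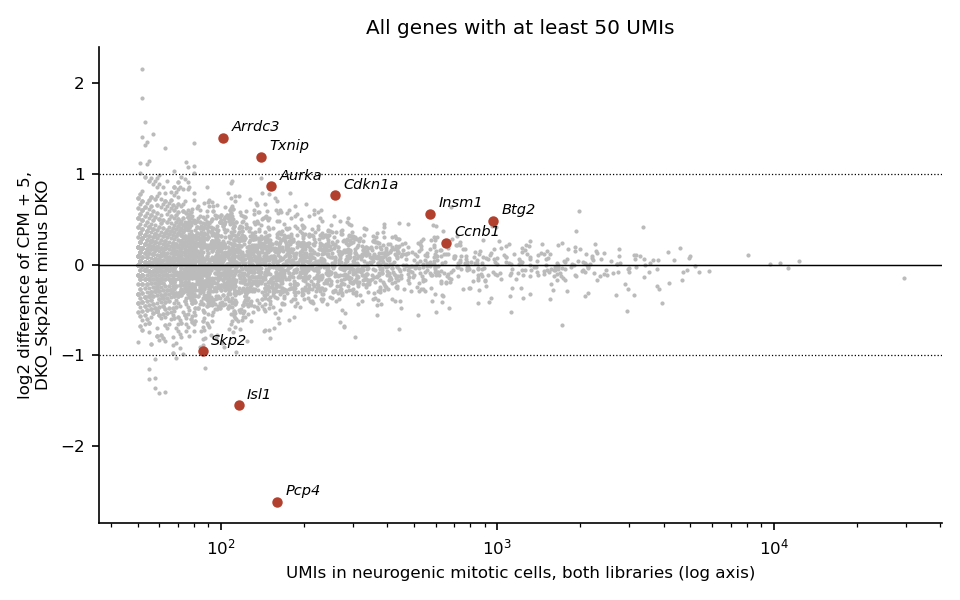
Each point is a gene with at least 50 UMIs in the neurogenic mitotic cells, placed by its UMIs in both libraries (log axis) and by its log2 difference of CPM plus 5 (DKO_Skp2het minus DKO), with dotted lines at 2-fold. Arrdc3 and Txnip lie above the upper line, Pcp4 and Isl1 below the lower, and Skp2 lies just inside it at -0.95.

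Measures of cell quality were close between the libraries in this set. Mitochondrial UMIs had a median of 3.02% in DKO and 2.99% in DKO_Skp2het. Immediate-early genes had a median difference of 0.19 over 7 genes, beside 0.27 in all other cells. Glial genes had a median of -0.022 over 10 genes, 4 of them above 0. Cells with the highest doublet scores of their library numbered 2 in DKO and 3 in DKO_Skp2het. The G2M, neurogenic and Cdkn1a differences between the libraries stood beside these values, and the part of cell quality in them was not tested.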

How the data were processed

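The deposited files hold raw UMI counts per gene and barcode, 1 library for each genotype. The authors' tools, per the submitters' processing notes, were Cell Ranger 2.2.0 with mm10; how barcodes were filtered is not given in the sources used here. Of the barcodes, 1 in DKO and 2 in DKO_Skp2het had under 500 genes and were dropped. The cells described and the gene lists were chosen with earlier results of these data known. UMIs were summed by library and population, and log2 differences of CPM plus 5 were taken over genes with at least 50 UMIs in the set. A single library on each side allows no test. Exact intervals are conditional for ratios of sums, Poisson for levels and Clopper-Pearson for shares; ratios of shares and of S phase to G2M values carry log-normal intervals. Doublet scores came from a Scrublet-style neighbour search against simulated pairs of cells; high-scoring cells (0.8% for each 1000 barcodes) stayed in, and their removal was an alternative. Genes were named if they belonged to the rule or a described list, were among the 10 largest differences in each direction between libraries with at least 100 UMIs, or were among the 15 highest over another population; Stmn2, Calb1 and Crx were chosen after their values were seen. Alternatives changed the rule's limits, filters, depth, scaling and pseudocount. The calculations were tested on simulated data. Software was numpy 2.4.6, pandas 2.3.3, scipy 1.17.1, scikit-learn 1.9.0 and matplotlib 3.10.9 under Python 3.11.15.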

Additional observations from a re-analysis of the deposited data

How the results depend on the processing

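No paired analysis was possible because there was 1 library per genotype, and for the same reason no replicate could be left out. Of the recomputed main values, 163 stayed near the reported value (inside its interval, or for the count of genes at a like size) and 24 did not. The 163 include settings that could not move values within the set. Requiring at least 1000 genes, or at most 10% mitochondrial UMIs, left the same 112 and 134 cells. The S phase to G2M ratio, DKO_Skp2het over DKO, was 0.940 and 0.785 at limits of 1000 and 4000 CPM, 0.793 with both libraries held to the lowest UMI total of 3420 (112 and 85 cells), and 0.788 without the exclusion. Genes 2-fold apart numbered 17 with cells thinned to 2000 UMIs before the rule, 14 with a pseudocount of 20, 120 with at least 25 UMIs, 0 with at least 200 UMIs and 13 without the exclusion. With at least 3 neurogenic genes (45 and 78 cells) the share ratio was 1.21, the mitotic share ratio 0.959, the G2M median 0.36, the cyclin median 0.39 and the Müller glia median of DKO over other mitotic cells -1.58. At the common lowest total the G2M, cyclin and neurogenic medians were 0.24, 0.29 and 0.13. Thinning (136 and 187 cells) gave 0.50 for neurogenic and 0.38 for Notch genes and a mitotic share ratio of 0.931. The G2M median was 0.10 at 1000 CPM. Without the exclusion the share ratio was 0.639, the G2M median 0.31 and the neurogenic median 0.066.

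Signs changed for few genes. Thinning gave Hspa14 -0.029, Isl1 1.05, Nsg1 0.16, Pcp4 0.64, Sncb 0.25 and Snrpn 0.094. Without the exclusion Cd47 was 0.16, Neurod1 -0.22, Nusap1 0.097, Rpa2 0.077, Sox11 -0.17, Sox4 -0.063 and Ythdf2 -0.0071. With at least 3 neurogenic genes Neurod1 was -0.12 and histones 0.36, at 4000 CPM Pcp4 was 0.015, at 1000 CPM amacrine genes were 0.048, and as a mean over cells photoreceptor genes were -0.11. The cause was not tested. The settings without the exclusion, without microglia-gene and vascular-gene cells, and without each gene's highest cell were added after the data had been seen.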
